A study of Mus musculus with 124 samples.

Results

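The presynaptic vesicle release and recycling genes described here are 37 mouse genes that load, dock, fuse and retrieve synaptic vesicles, chosen by name among the 24409 gene symbols measured in dorsal dentate gyrus (dDG). They were taken as 25 genes of the release machinery, 6 of the active zone and 6 of endocytosis. These 37 genes were chosen with earlier results of these data known. The study compared control (Ctrl) mice with mice from a maternal exposure to human chorionic gonadotropin (hCG), the hormone given to trigger ovulation, in oocytes, blastocysts and offspring. Of its 124 samples, the 12 polyA RNA libraries of offspring dDG were used. The results are ordered by 6 role groups, and log2 fold changes are positive where the hCG group was higher.

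Both dDG groups were offspring aged 8 weeks, with 6 libraries each. In the hCG group, per the labels, females in natural estrus had received 7.5 IU hCG into the peritoneum and no gonadotropin priming. In the Ctrl group, females in estrus had been housed with a sterile vasectomised male and had received no hCG. How the dDG offspring were then conceived, their strain, sex and litters, and any transfer of embryos are not in the labels. All the offspring were anaesthetised with tribromoethanol and perfused with buffered saline before dissection. The labels do not say that the 6 libraries of a group came from separate animals, so p-values measure the spread between these samples.

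A synaptic vesicle is filled with transmitter by a vesicular transporter, is tethered and primed at the active zone, and fuses when SNARE proteins on vesicle and plasma membrane zip together. Calcium sensors such as the synaptotagmins trigger that fusion, and clathrin, dynamin, endophilin and synaptojanin then retrieve and uncoat the membrane. In the dentate gyrus most neurons are glutamatergic granule cells, whose mossy fibre terminals lie in the hilus and CA3, while axons from the entorhinal cortex, hilar mossy cells and interneurons end on the granule cells. Messenger RNA in dissected dDG comes mainly from cell bodies there, so the entorhinal inputs are not represented by their own transcripts.

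Total depth ran from 14991582 to 17859654 expected counts per library, and 16014 to 16459 genes were detected. Levels are given as CPM, expected counts scaled to a common library total. Gene lengths were not used, so levels are compared between libraries for a gene and not between genes. A set of 3 libraries stood apart for the 37 genes. The median deviation of the genes from the Ctrl mean, on the log2(CPM + 1) scale, was 0.17 in Ctrl 1, -0.341 in hCG 4 and -0.354 in hCG 6, and lay between -0.152 and 0.026 in the other 9 libraries. Ctrl 1 had the highest level of all 12 libraries for 25 of the 37 genes, and hCG 4 or hCG 6 the lowest for 26.

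Several lists of cell type markers differed in the same libraries. In hCG 6 the 7 choroid plexus and ependyma markers summed to 9595 CPM, of which Ttr, the choroid plexus carrier of thyroid hormone, made up 8917, against at most 113 CPM elsewhere. Markers of granule neurons, which define the labelled tissue, summed to 878 to 1381 CPM in Ctrl and 1227 to 1619 CPM in hCG, lowest in Ctrl 1 and highest in hCG 4 and hCG 6. Of these 8 markers, 3 rose (Prox1, Plk5 and Glis3) and 1 fell (Trpc6). The 8 interneuron markers summed to 95.3 to 176 CPM in Ctrl and 82.7 to 168 CPM in hCG, highest in Ctrl 1 and lowest in hCG 4 and hCG 6. The 6 CA3 pyramidal neuron markers summed to 261 to 326 CPM in Ctrl and 217 to 317 CPM in hCG, again highest in Ctrl 1 and lowest in hCG 6 and hCG 4. Not every marker of this list followed the sum. Elavl2 did, while Coch was highest in hCG 4 (20.3 CPM) and Mas1 in hCG 6 (35.3 CPM). Cpne4 had its lowest Ctrl value in Ctrl 1 (130 CPM). Calb2, a mossy cell marker, stood at 118 CPM in Ctrl 1 and at most 23.6 CPM in the other 11 libraries. The 7 general neuronal markers summed to 3198 to 3401 CPM in Ctrl and 3072 to 3528 CPM in hCG. Other lists moved as well, not all in the same libraries. The sum of the 6 CA1 pyramidal neuron markers was lowest in Ctrl 1 (90.1 CPM) and highest in hCG 1 (257 CPM). Astrocyte markers summed to 1502 to 1884 CPM in Ctrl and 1524 to 1997 CPM in hCG. The sums were 58.4 to 88.5 and 69.8 to 95.9 CPM for Cajal-Retzius cells. For thalamus and habenula they were 83.4 to 116 and 79.1 to 115 CPM. Endothelial and mural markers summed to 307 CPM in hCG 4 and 269 CPM in hCG 6, against at most 216 CPM elsewhere, with 0 of 5 called by edgeR and 1 with an unadjusted p under 0.05. Among microglial markers 3 of 6 rose (C1qa, C1qb and Tmem119), where 4.66% of all genes were called higher. Cx3cr1 (log2 fold change 0.19), Csf1r (0.13) and P2ry12 (-0.001) were not called. The microglial sums were 221 to 281 CPM in Ctrl and 254 to 323 CPM in hCG. Among markers of oligodendrocyte precursors 2 of 3 rose (Cspg4 and Olig2), and Pdgfra (-0.02) was not called. The precursor sums were 61.9 to 81.8 CPM in Ctrl and 80.0 to 88.4 CPM in hCG. The median estimate of the 6 oligodendrocyte markers was -0.381, with 0 called by edgeR and 2 with an unadjusted p under 0.05, and their sums were 1179 to 2856 CPM in Ctrl and 1098 to 2552 CPM in hCG. Called genes are given with and without the 3 libraries that stood apart, and the part of these markers in any result was not tested. In bulk tissue, fewer cells of a type and less RNA per cell cannot be told apart.

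Promoters are shown for the called genes whose reference window lies outside the annotated gene (Pacsin2 and Sv2c), with Rab3a and Syn1 added after their values were seen, because Rab3a did not overlap between groups and Syn1 alone held both a cAMP response element and part of a repressor site. RefSeq promoter entries (build GRCm38.p6) matched 31 of the 37 genes. Further annotated starts of Pacsin2 and Rab3a, inside the gene, are not shown. Which transcript each start belongs to was not examined. Each sequence is the 250 bases before an annotated start, 5′ to 3′ on the strand of the gene, and 246 bases for Pacsin2, where 4 bases lay inside the annotated gene. Capitals mark the GC box GGGCGG on either strand and, in Syn1, the cAMP response element TGACGTCA and the left part of the RE1 repressor site, TTCAGCACC. The windows are chr15:83464611-83464856 on the minus strand for Pacsin2, chr13:96132578-96132827 on the minus strand for Sv2c, chr8:70754453-70754702 on the plus strand for Rab3a and chrX:20920919-20921168 on the minus strand for Syn1.
Pacsin2: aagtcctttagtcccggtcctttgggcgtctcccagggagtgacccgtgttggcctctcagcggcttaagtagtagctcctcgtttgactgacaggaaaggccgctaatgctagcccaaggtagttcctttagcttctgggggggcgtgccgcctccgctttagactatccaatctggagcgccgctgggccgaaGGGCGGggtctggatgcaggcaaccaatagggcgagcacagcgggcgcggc
Sv2c: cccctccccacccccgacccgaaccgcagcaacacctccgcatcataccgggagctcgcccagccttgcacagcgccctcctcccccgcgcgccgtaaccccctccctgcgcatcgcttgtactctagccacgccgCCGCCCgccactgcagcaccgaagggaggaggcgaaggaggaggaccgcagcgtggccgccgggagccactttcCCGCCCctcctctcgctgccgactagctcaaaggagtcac
Rab3a: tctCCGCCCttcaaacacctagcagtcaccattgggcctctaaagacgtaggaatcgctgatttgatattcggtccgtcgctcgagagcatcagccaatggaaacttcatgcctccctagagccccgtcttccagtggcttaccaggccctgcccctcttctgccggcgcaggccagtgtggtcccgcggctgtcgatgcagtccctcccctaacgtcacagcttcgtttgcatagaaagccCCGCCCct
Syn1: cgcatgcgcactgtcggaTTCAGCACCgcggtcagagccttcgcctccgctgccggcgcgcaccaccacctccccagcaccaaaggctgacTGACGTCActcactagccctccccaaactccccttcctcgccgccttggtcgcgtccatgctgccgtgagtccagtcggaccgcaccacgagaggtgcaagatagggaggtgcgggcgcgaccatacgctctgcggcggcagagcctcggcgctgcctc

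The GC box, a Sp-family motif of GC-rich promoters, was in 20 of the 31 matched windows (64.5%) and in 32.9% of the 27025 gene windows of the same length. The median GC content was 61.2% in the matched windows and 52.0% in all. The cAMP response element, bound by the activity-dependent factor CREB, was in 2 of 31 (6.45%, Sh3gl2 and Syn1) against 1.62% of all windows. The left RE1 part, from the element read by the neuronal gene repressor REST, was in 1 of 31 (3.23%, Syn1) against 0.285%, and the right part GGACAGC in 2 (6.45%, Gad2 and Pacsin1) against 5.29%. The EGR site GCGTGGGCG, which can overlap a GC box, was in 1 of 31 (Unc13a) against 0.54% of all windows, and the E-box CACGTG in 1 (Nsf) against 6.05%. One window per gene was counted, on both strands, and these matches are descriptions of letters, not of binding.

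Across the 37 genes, most levels were lower in hCG by a small amount, while the largest single change was a rise. All 37 passed the low-count filter, and 6 passed the test (16.2%), against 7.86% of all 13853 genes tested. Pacsin2, Doc2b, Sv2c and Gad1 rose (4 of 37, where 4.66% of all genes were called higher), and Synj1 and Syt11 fell (2 of 37, where 3.20% were called lower). The log2 fold change was negative for 30 of 37 (81.1%), with a median of -0.151, against 48.9% negative and a median of 0.005 over all genes. Among the 11557 genes at or above the mean CPM of the lowest of the 37, 49.7% were negative and 8.95% called. An unadjusted p under 0.05 was found for 15 of 37 (40.5%), against 24% of all genes. Because the 37 genes were chosen with earlier results of these data known, these shares describe them and are no test against all genes. Among the 75 other genes of the pathway that were tested, 56% were negative and 6.67% called.

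The share of negative values depended on the 3 libraries that stood apart. They were picked by the deviations of these same genes, so leaving them out narrows the group difference in part by construction. The same holds for the single-gene estimates given without them. Without Ctrl 1, hCG 4 and hCG 6, a setting chosen after the data were seen, 23 of 37 were negative with a median of -0.041. Pacsin2 alone was then called, where 4.93% of all genes were called, against 7.86% with all libraries. Without hCG 4 and hCG 6 only, 27 of 37 were negative with a median of -0.073. Again Pacsin2 alone was called, where 3.9% of all genes were. Both settings rest on fewer libraries. Groups without any overlap between their libraries were seen for 3 genes, Pacsin2 with every hCG library above every Ctrl library (2.37% of all genes tested) and Syt11 and Rab3a with every hCG library below (2.13% of all genes tested).

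**Figure D1:**
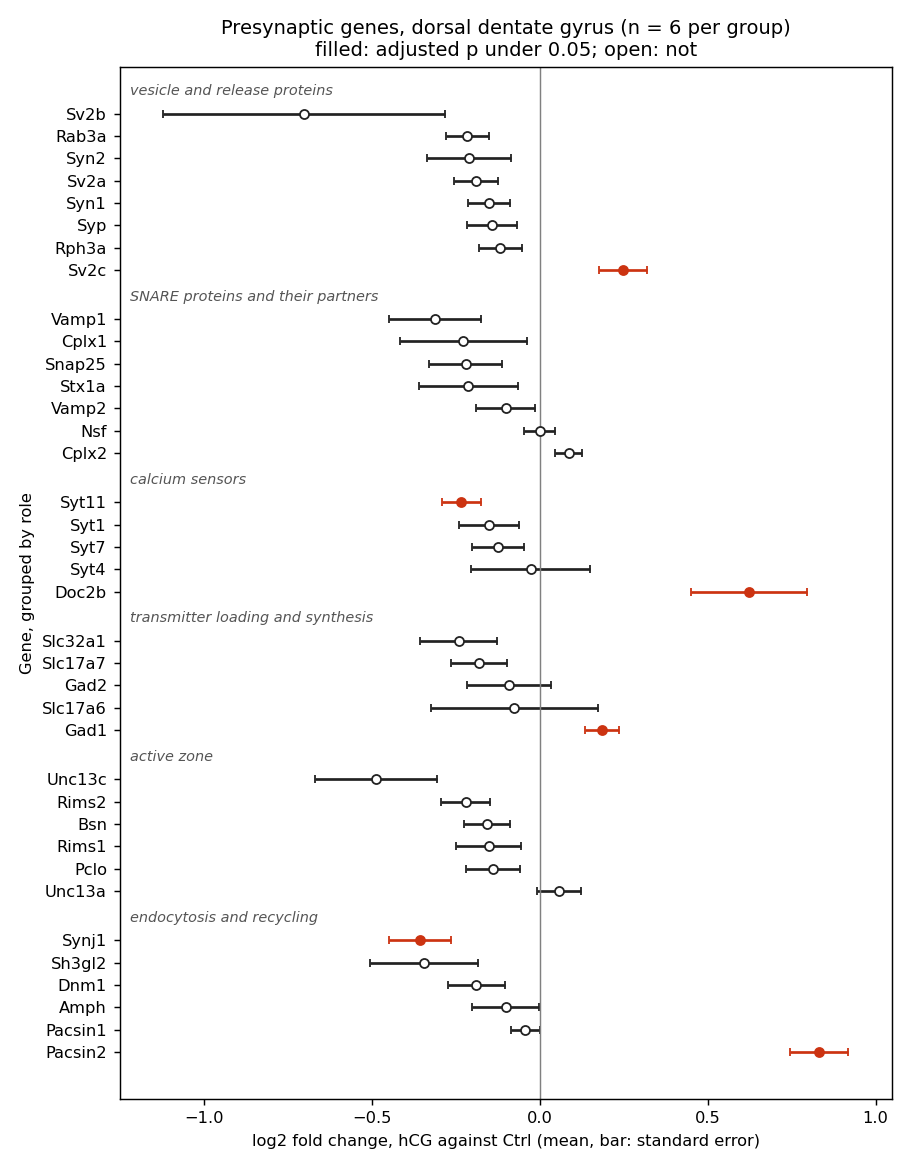
Log2 fold change (hCG against Ctrl, x axis) of the 37 genes, grouped by role (y axis), with bars for the standard error and filled points for an adjusted p under 0.05. The estimates run from -0.70 (Sv2b) to 0.83 (Pacsin2), and 30 of 37 lie below 0.

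**Figure D2:**
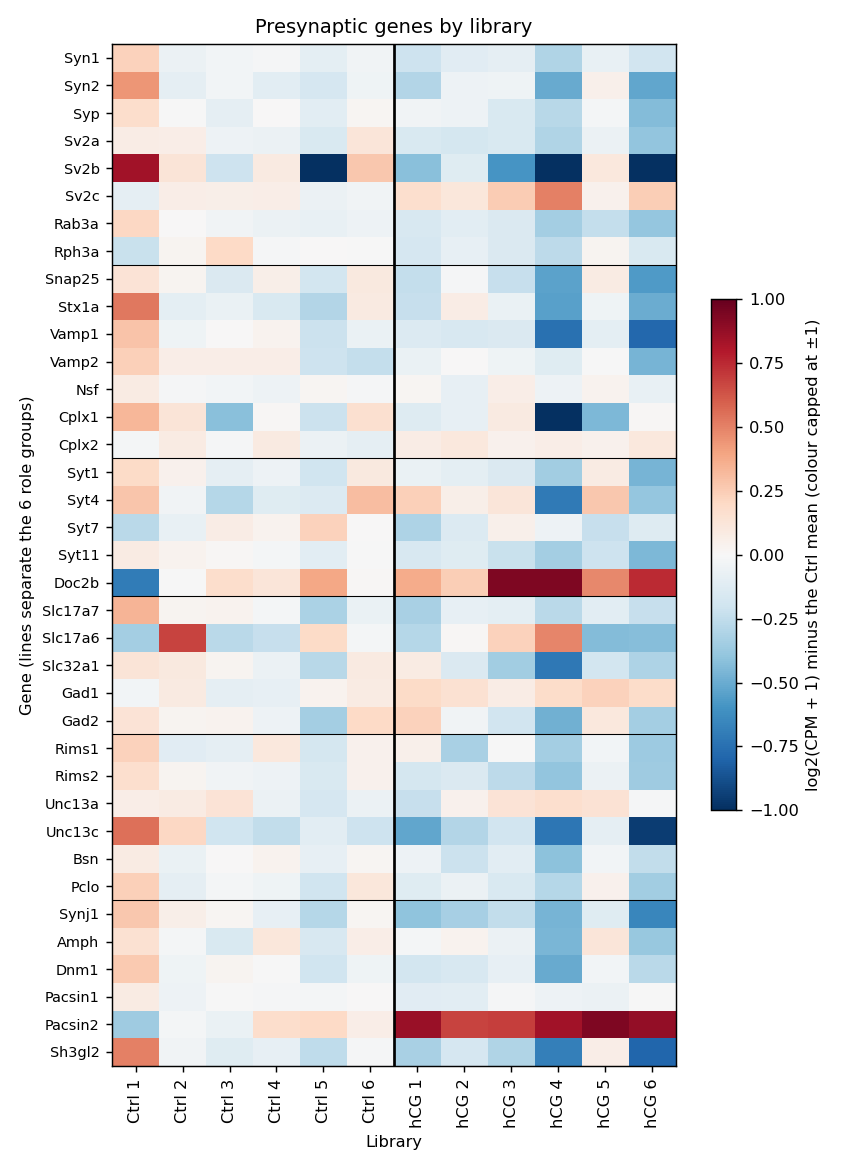
Level of each of the 37 genes (rows) in each of the 12 libraries (columns), as log2(CPM + 1) minus the Ctrl mean, with colour capped at 1 in either direction. The column of Ctrl 1 is mostly red, with a median of 0.17, and those of hCG 4 and hCG 6 mostly blue, with medians of -0.341 and -0.354, while the row of Pacsin2 is red in all 6 hCG libraries.

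Among the 8 vesicle and release proteins, Sv2c rose (1 of 8, against 4.66% of all genes called higher) and the other 7 had negative estimates. The median over the 8 was -0.17 (median of all genes 0.005). Sv2c encodes a form of the synaptic vesicle glycoprotein 2 family, transporter-like proteins of the vesicle membrane that also receive botulinum neurotoxin. Its level was 26.5, 29.6, 29.4, 29.7, 27.1 and 27.7 CPM in Ctrl 1 to 6 and 32.0, 30.6, 33.9, 40.7, 29.3 and 33.7 CPM in hCG 1 to 6. All 6 hCG libraries lay above the Ctrl median and hCG 4 was the highest, with hCG 5 inside the Ctrl range. The mean was 28.3 ± 1.43 (SD, n = 6) in Ctrl and 33.4 ± 3.99 CPM in hCG, a log2 fold change of 0.25 ± 0.07 (SE; edgeR quasi-likelihood test, Benjamini-Hochberg adjusted p = 0.0440). Without Ctrl 1, hCG 4 and hCG 6 the estimate was 0.15 (adjusted p = 0.225). The call held in 8 of 24 other settings, and with 1 library left out only where that was hCG 2 or hCG 5 (adjusted p 0.0592 to 0.0966 without each of the other 10).

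The 2 other forms of the family had negative estimates. Sv2a, the binding site of the antiepileptic drug levetiracetam, had a mean of 425 ± 30.4 CPM in Ctrl and 369 ± 30.3 CPM in hCG (log2 fold change -0.19 ± 0.07, edgeR adjusted p = 0.0901), with all 6 hCG libraries below the Ctrl median. Sv2b had the lowest estimate of the 37 (-0.70 ± 0.42, edgeR adjusted p = 0.341). It ran from 96.9 through a median of 230.2 to 383 CPM in Ctrl and from 54.6 through 150.2 to 229.5 CPM in hCG, the widest relative spread of the vesicle proteins, with Ctrl 1 highest and hCG 4 and hCG 6 lowest. Without these 3 libraries the Sv2b estimate was -0.12 (adjusted p = 0.869) and that of Sv2a -0.10.

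Rab3a, the small GTPase that marks synaptic vesicles before fusion, lay just outside the threshold. It ran from 498 through a median of 510.2 to 606 CPM in Ctrl and from 401 through 456 to 489 CPM in hCG, so the groups did not overlap. The log2 fold change was -0.22 ± 0.06 (edgeR adjusted p = 0.0502), and 6 of the 24 other settings called it. The estimate was -0.10 without Ctrl 1, hCG 4 and hCG 6 (adjusted p = 0.197). Its effector Rph3a, rabphilin, had an estimate of -0.12 ± 0.07 (adjusted p = 0.290).

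The synapsins tether vesicles in the reserve pool. Syn1 had a mean of 531 ± 45.6 CPM in Ctrl and 474 ± 27.8 CPM in hCG (edgeR log2 fold change -0.15 ± 0.06, adjusted p = 0.150), and its highest Ctrl value, 622 CPM, came from Ctrl 1. All 6 hCG libraries lay below the Ctrl median for Syn1 and for Syp, synaptophysin, the classical marker of the vesicle membrane (-0.14 ± 0.08, adjusted p = 0.261). Syn2 had an estimate of -0.21 ± 0.12 (adjusted p = 0.325), and of its hCG libraries 3 lay above and 3 below the Ctrl median. Without the 3 libraries the estimates were 0.03 for Syn2, -0.05 for Syn1 and -0.01 for Syp, and the median of the 8 genes of the group was -0.077.

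None of the 7 SNARE proteins and their partners passed the edgeR test, where 7.86% of all genes did. Of the 7, only Vamp1 had an unadjusted p under 0.05 (14.3%, against 24% of all genes). Neither DESeq2 nor limma called any of the 7, where they called 11.4% and 7.91% of all genes. Their median log2 fold change was -0.212, with 5 of 7 negative. Vamp1, the vesicle SNARE synaptobrevin 1, had 106, 84.4, 87.1, 89.2, 74.6 and 82.8 CPM in Ctrl 1 to 6 and 79.2, 77.8, 78.5, 51.4, 81.2 and 49.98 CPM in hCG 1 to 6. All 6 hCG libraries lay below the Ctrl median, and 4 of them were inside the Ctrl range and hCG 4 and hCG 6 stood below it. The estimate was -0.31 ± 0.14 (edgeR adjusted p = 0.183), and -0.06 without the 3 libraries.

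The plasma membrane SNARE Snap25 ran from 1955 through a median of 2289 to 2447 CPM in Ctrl and from 1502 through 1887 to 2346 CPM in hCG. Of its hCG libraries, 4 lay below the lowest Ctrl library, with hCG 4 and hCG 6 lowest (log2 fold change -0.22 ± 0.11, edgeR adjusted p = 0.236). Its partner Stx1a, syntaxin 1A, had an estimate of -0.21 ± 0.15 (adjusted p = 0.406), and the main vesicle SNARE Vamp2 one of -0.10 ± 0.09 (adjusted p = 0.518). Without the 3 libraries the estimates of Snap25, Stx1a and Vamp2 were -0.05, 0.06 and 0.04, and 3 of the 7 genes of the group were negative, with a median of 0.037.

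Nsf, the ATPase that takes spent SNARE complexes apart, averaged 1809 ± 58.8 CPM over the Ctrl and 1792 ± 76.0 CPM over the hCG libraries (log2 fold change 0.001 ± 0.05, edgeR adjusted p = 0.993). The 2 complexins, which clamp and then assist fusion, had estimates of opposite sign. Cplx1 had an estimate of -0.23 ± 0.19 (adjusted p = 0.499), with its lowest value, 259.6 CPM, in hCG 4, and one of -0.06 without the 3 libraries. Cplx2 had 2620 ± 131 CPM in Ctrl and 2752 ± 52.3 CPM in hCG (0.09 ± 0.04, edgeR adjusted p = 0.219), with all 6 hCG libraries above the Ctrl median.

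Of the 5 synaptotagmins and Doc2 proteins grouped as calcium sensors, Syt11 fell, Doc2b rose and the 3 others did not pass the test (2 of 5 called, against 7.86% of all genes). Syt11, placed here by family, encodes a synaptotagmin that lacks calcium binding and is known as an inhibitor of vesicle endocytosis. Its level was 989.9, 959, 946, 924, 873 and 935 CPM in Ctrl 1 to 6 and 836, 859, 805, 739, 811 and 685 CPM in hCG 1 to 6. Every hCG library lay below every Ctrl library, with hCG 4 and hCG 6 lowest. The mean was 938 ± 39.2 CPM in Ctrl and 789 ± 65.0 CPM in hCG (log2 fold change -0.23 ± 0.06, n = 6, edgeR adjusted p = 0.0229). The call was lost without Ctrl 2 (adjusted p = 0.0513), without hCG 4 (0.0562), without hCG 4 and hCG 6 (0.0737) and without Ctrl 1, hCG 4 and hCG 6 (0.0755, estimate -0.14).

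Doc2b, a soluble double-C2-domain sensor of high calcium affinity linked to spontaneous and asynchronous release, had 126, 204, 232, 223, 268 and 206 CPM in Ctrl 1 to 6 and 265, 243, 392, 391, 286 and 344 CPM in hCG 1 to 6. The highest Ctrl library, Ctrl 5, lay above hCG 1 and hCG 2, and Ctrl 1 was the lowest of the 12. The mean was 209.8 ± 47.3 CPM in Ctrl and 320.3 ± 64.6 CPM in hCG, a ratio of 1.54 (log2 fold change 0.62 ± 0.17, edgeR adjusted p = 0.0484). The sum of the granule neuron markers was likewise lowest in Ctrl 1 and high in hCG 4. Not each of them followed, as C1ql2 had its highest Ctrl value in Ctrl 1 (109 CPM). The part of these markers in the Doc2b values was not tested. The Doc2b estimate was 0.41 without Ctrl 1, hCG 4 and hCG 6 (adjusted p = 0.136). The call held in 9 of 24 other settings, and with 1 library left out only where that was Ctrl 1, Ctrl 5 or hCG 2 (adjusted p 0.0518 to 0.0994 without each of the other 9).

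Syt1, the main sensor of fast synchronous release, had 1385 ± 135 CPM in Ctrl and 1234 ± 166 CPM in hCG (-0.15 ± 0.09, edgeR adjusted p = 0.325), and an estimate of 0.004 without the 3 libraries. Syt7, the slow high-affinity sensor, had an estimate of -0.12 ± 0.08 (adjusted p = 0.337). Syt4, an activity-induced synaptotagmin of dense-core vesicles, had one of -0.03 ± 0.18 (adjusted p = 0.945), which turned to 0.24 without the 3 libraries.

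Among the 5 genes that load or make transmitter, Gad1 rose (1 of 5, against 4.66% of all genes called higher) and the other 4 had negative estimates and did not pass the test. Gad1 encodes the GABA-synthesising enzyme GAD67, which granule cells are also known to express at low levels beside interneurons. Its level was 355, 385, 339, 342, 370.2 and 382 CPM in Ctrl 1 to 6 and 414, 403, 382, 412, 424 and 410.2 CPM in hCG 1 to 6. Only hCG 3 lay within the Ctrl range, and the spread within each group was small. The mean was 362 ± 19.7 CPM in Ctrl and 407 ± 14.4 CPM in hCG (log2 fold change 0.18 ± 0.05, edgeR adjusted p = 0.0339). Without the 3 libraries the estimate was also 0.18, with an adjusted p of 0.0909. The call held in 12 of 24 other settings, and was lost without each of Ctrl 1, 3 and 4 and hCG 1, 4, 5 and 6 (adjusted p 0.055 to 0.081).

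The other genes of GABA transmission did not pass the test. Gad2, the second GABA-synthesising enzyme, GAD65, had 118 ± 14.7 CPM in Ctrl and 109.7 ± 20.5 CPM in hCG (-0.09 ± 0.12, edgeR adjusted p = 0.703). Slc32a1, which loads GABA into vesicles, ran from 46.5 through a median of 58.9 to 61.8 CPM in Ctrl and from 34.1 through 47.6 to 60.01 CPM in hCG (-0.24 ± 0.11, edgeR adjusted p = 0.215). For both genes hCG 4 was the lowest library, as it was for the sum of the interneuron markers, though not for each marker. Without the 3 libraries the estimates were 0.08 for Gad2 and -0.10 for Slc32a1, and the difference between Gad1 and these genes was not itself tested.

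Slc17a7, VGLUT1, the glutamate transporter of granule and pyramidal neurons, had 1718 ± 255 CPM in Ctrl and 1499 ± 106 CPM in hCG (-0.18 ± 0.08, edgeR adjusted p = 0.198), with all 6 hCG libraries below the Ctrl median, and an estimate of -0.07 without the 3 libraries. Slc17a6, VGLUT2, which serves mainly subcortical neurons, averaged 4.04 ± 1.49 CPM over the Ctrl libraries and 3.80 ± 1.30 CPM over the hCG libraries (-0.08 ± 0.25, adjusted p = 0.886).

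**Figure D3:**
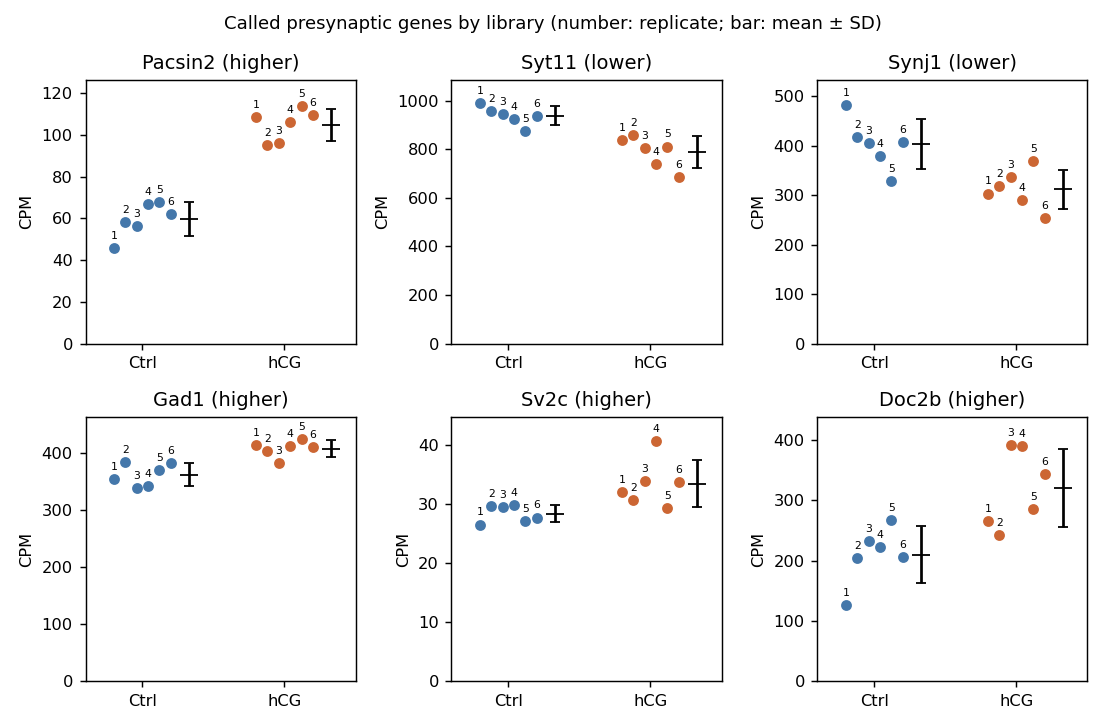
CPM (y axis) of the 6 called genes in each Ctrl and hCG library (points, numbered by replicate), with the mean and SD as a bar. Pacsin2 and Syt11 show no overlap between the groups, while in the panels of Synj1, Gad1, Sv2c and Doc2b the ranges of the groups overlap.

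The 6 active zone genes build the protein mesh at which vesicles dock and are primed. None passed the edgeR test, where 7.86% of all genes did. Unadjusted p values under 0.05 were found for 3 of 6 (50%, against 24% of all genes), Rims2, Unc13c and Bsn. DESeq2 called 1 of the 6, Rims2, and limma none, where they called 11.4% and 7.91% of all genes. The estimates were negative for 5 of 6, with a median of -0.154 (median of all genes 0.005), which was -0.033 without Ctrl 1, hCG 4 and hCG 6. Rims2, a scaffold that links Rab3 on the vesicle to calcium channels, had 52.1, 47.1, 45.0, 44.6, 41.5 and 47.5 CPM in Ctrl 1 to 6 and 40.7, 41.7, 38.4, 34.9, 44.2 and 35.9 CPM in hCG 1 to 6. All 6 hCG libraries lay below the Ctrl median, and hCG 2 and hCG 5 reached into the Ctrl range (-0.22 ± 0.07, edgeR adjusted p = 0.0754). Its paralog Rims1 had an estimate of -0.15 ± 0.10 (adjusted p = 0.359). Their estimates without the 3 libraries were -0.11 for Rims2 and -0.01 for Rims1.

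The Munc13 proteins open syntaxin for SNARE assembly. Unc13c, Munc13-3, had the lowest active zone estimate, from 11.2 through a median of 11.96 to 20.2 CPM in Ctrl and from 6.45 through 9.89 to 12.5 CPM in hCG. The highest value was that of Ctrl 1 and the lowest that of hCG 6 (-0.49 ± 0.18, edgeR adjusted p = 0.117). Unc13a, Munc13-1, the priming factor that most glutamatergic release requires, was the only active zone gene with a positive estimate (0.06 ± 0.07, adjusted p = 0.629), with means of 324 ± 25.4 CPM for Ctrl and 333 ± 33.1 CPM for hCG. The giant scaffolds bassoon and piccolo had estimates of -0.16 ± 0.07 for Bsn (adjusted p = 0.171) and -0.14 ± 0.08 for Pclo (adjusted p = 0.302), with hCG 4 lowest for Bsn and hCG 6 lowest for Pclo. Estimates without the 3 libraries were -0.15 for Unc13c, -0.06 for Bsn and -0.005 for Pclo.

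Endocytosis and recycling held the gene with the smallest p of the 37. Pacsin2 rose and Synj1 fell (2 of 6 called, against 7.86% of all genes), and the other 4 were negative without passing the test. Pacsin2 encodes syndapin 2, a membrane-bending F-BAR protein that binds dynamin and, unlike its brain-restricted relative Pacsin1, is made in many tissues. Its level was 45.9, 58.3, 56.5, 66.9, 67.8 and 62.0 CPM in Ctrl 1 to 6 and 108, 95.0, 96.3, 106, 114 and 109.6 CPM in hCG 1 to 6. The lowest hCG library was above the highest Ctrl library. The mean was 59.6 ± 8.08 CPM in Ctrl and 105 ± 7.57 CPM in hCG, a ratio of 1.78 (log2 fold change 0.83 ± 0.09, n = 6, edgeR adjusted p = 1.13e-04), and the gene ranked 9 by p among the 13853. It was called in all 24 other settings, with a largest adjusted p of 0.00131, and its estimate without the 3 libraries was 0.75 (adjusted p = 2.12e-04).

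Pacsin1, the neuronal syndapin, did not pass the test. Its mean was 408 ± 13.2 CPM in Ctrl and 392 ± 12.6 CPM in hCG (-0.04 ± 0.04, edgeR adjusted p = 0.574), and 5 of 6 hCG libraries lay below the Ctrl median. Pacsin2 spans chr15:83375607-83464610 and Pacsin1 chr17:27655591-27711118 in GRCm38.p6.

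Synj1 encodes synaptojanin 1, the lipid phosphatase that lets clathrin come off the retrieved vesicle. Its level was 482, 416, 405, 379, 329 and 407 CPM in Ctrl 1 to 6 and 303, 317, 337, 290.0, 368 and 254 CPM in hCG 1 to 6. All 6 hCG libraries lay below the Ctrl median, and hCG 3 and hCG 5 lay above Ctrl 5, the lowest Ctrl library. The mean was 403 ± 49.95 CPM in Ctrl and 312 ± 39.3 CPM in hCG (log2 fold change -0.36 ± 0.09, edgeR adjusted p = 0.0303). Without Ctrl 1, hCG 4 and hCG 6 the estimate was -0.20 (adjusted p = 0.119). The call held in 12 of 24 other settings, and was lost without each of Ctrl 1, 2, 3 and 6 and hCG 1, 2, 4 and 6 (adjusted p 0.0505 to 0.07).

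Sh3gl2, endophilin A1, recruits synaptojanin to the neck of the forming vesicle and had an estimate of -0.34 ± 0.16 (edgeR adjusted p = 0.216), which was -0.05 without the 3 libraries (adjusted p = 0.758). It was highest in Ctrl 1, at 390.1 CPM, and lowest in hCG 4 and hCG 6. Dnm1, dynamin 1, the GTPase that cuts the vesicle free, had 1234 ± 133 CPM in Ctrl and 1070 ± 119 CPM in hCG (-0.19 ± 0.08, edgeR adjusted p = 0.186), with all 6 hCG libraries below the Ctrl median, and an estimate of -0.04 without the 3 libraries. Amph, amphiphysin, which brings dynamin to the neck, had an estimate of -0.10 ± 0.10 (adjusted p = 0.577) and of 0.07 without the 3 libraries.

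**Figure D4:**
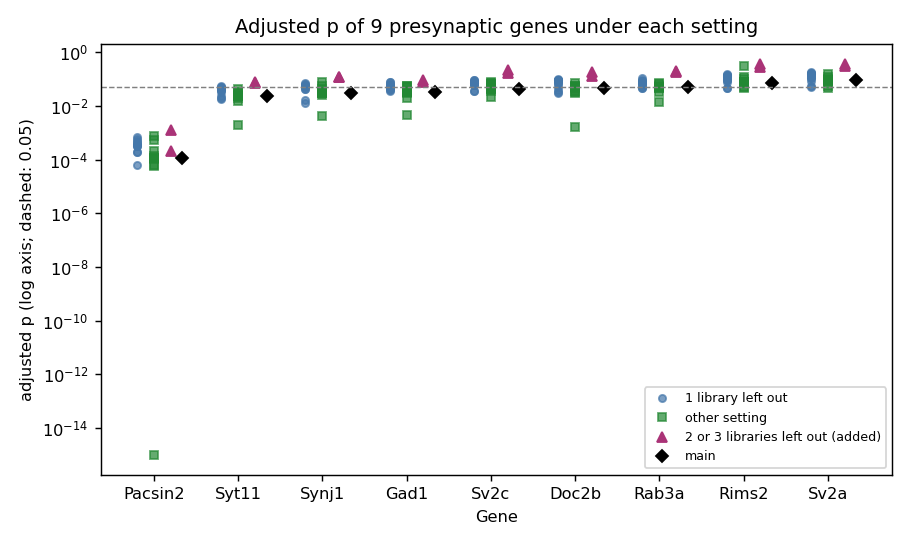
Adjusted p (y axis, log scale) of 9 genes under the main analysis (diamonds), with 1 library left out (circles), with another method or scaling (squares) and with 2 or 3 libraries left out (triangles), with a dashed line at 0.05. Pacsin2 stays below the line throughout, and the 8 other genes have points on both sides of it.

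The table holds 67 RefSeq transcripts of the 37 genes, of which 65 passed the low-count filter and 3 passed the transcript test. That was 1 higher and 2 lower, where 3.28% of 18584 transcripts passed, 2.03% higher and 1.24% lower. For Pacsin2 the rise was in transcript NM_001159509, which held 98.7% of the gene's counts in Ctrl (log2 fold change 0.84 ± 0.10, edgeR adjusted p = 0.00131). The single listed Syt11 transcript, NM_018804, fell (-0.23 ± 0.06, adjusted p = 0.0486). Dnm1 transcript NM_010065 fell (-0.33 ± 0.08, edgeR adjusted p = 0.0451), although Dnm1 as a gene did not pass. Without the 3 libraries the Pacsin2 transcript was still called (0.74, adjusted p = 0.01), and those of Syt11 (-0.15, adjusted p = 0.0988) and Dnm1 (-0.23, adjusted p = 0.157) were not. With 1 library left out, the Syt11 transcript was called only without Ctrl 5, hCG 1 or hCG 2 and that of Dnm1 only without hCG 3. Expected counts of transcripts that share exons are estimates, and 3 of the 6 Rims1 transcript rows hold identical values.

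No member transcript departed from its gene past the threshold (0 of 44 tested by diffSpliceDGE in edgeR, 4 with an unadjusted p under 0.05, where 0.215% of 7908 transcripts were called). In Vamp1 the transcript NM_001080557 made up 16.4, 19.03, 20.3, 12.1, 25 and 14.7% of the gene's counts in Ctrl 1 to 6 and 27.8, 28.8, 31.6, 44.2, 21.6 and 35.5% in hCG 1 to 6. Only hCG 5 lay inside the Ctrl range, and hCG 4 and hCG 6 had the highest shares (mean 17.93 ± 4.54% and 31.6 ± 7.69%, diffSpliceDGE adjusted p = 0.755). Its own estimate was 0.47 ± 0.14 (edgeR adjusted p = 0.0967), against -0.55 ± 0.20 for NM_009496, the main Vamp1 transcript (adjusted p = 0.147). For Syt1 the share of NM_001252342 was 28.0 ± 2.52% in Ctrl and 21.8 ± 2.91% in hCG (diffSpliceDGE adjusted p = 0.740). For Pclo the share of NM_011995 was 26.5 ± 3.74% in Ctrl and 32.1 ± 3.81% in hCG (diffSpliceDGE adjusted p = 0.99997). For Syt7 that of NM_018801 was 11.6 ± 2.15% and 14.9 ± 3.05% (diffSpliceDGE adjusted p = 0.972). The transcripts whose shares are given here are the 4 with an unadjusted p under 0.05.

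**Figure D5:**
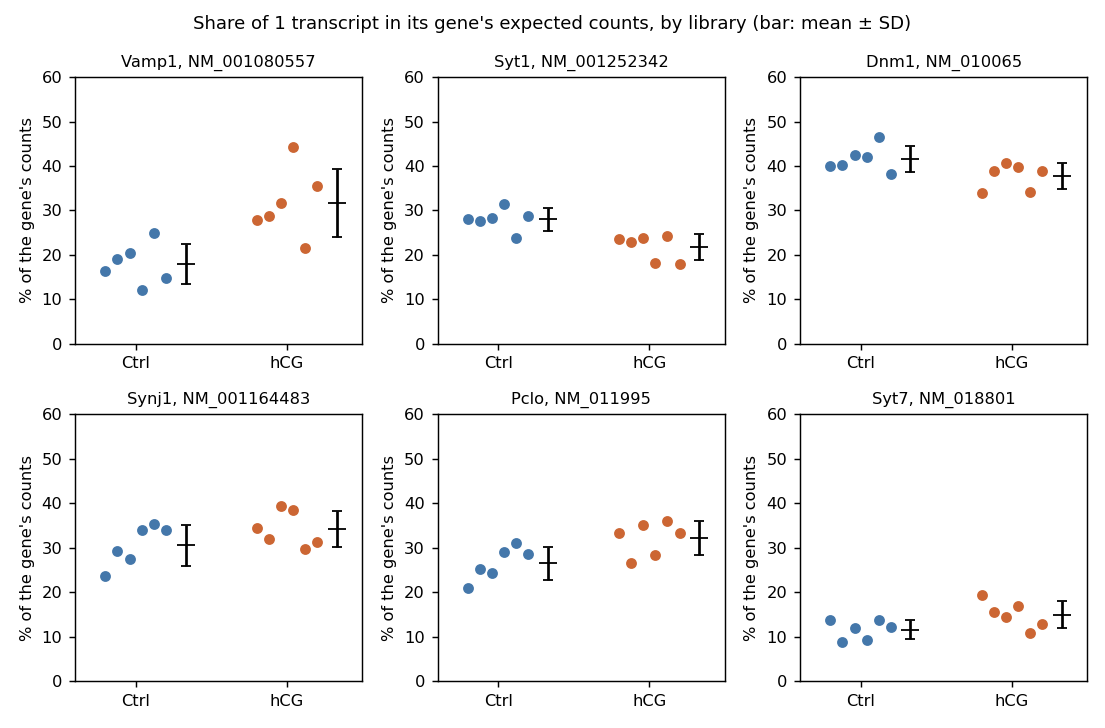
Share of 1 transcript in the expected counts of its gene (y axis, %) in each Ctrl and hCG library (points), with the mean and SD as a bar, for 6 genes. The Vamp1 share is 17.93% in Ctrl and 31.6% in hCG on average, and none of the 6 transcripts passed the test against its gene.

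Beside the 37 genes, 76 other genes of the same pathway were counted, of which 75 were tested, 1 rose and 4 fell (6.67%, against 7.86% of all genes). Their estimates were negative for 42 of 75 (56.0%), with a median of -0.054, and 18 had an unadjusted p under 0.05 (24%, the same share as all genes). Syt13, an atypical synaptotagmin, rose from 280.2 to 323 CPM on average, with every hCG library above every Ctrl library (0.22 ± 0.04, edgeR adjusted p = 0.00743), and was called in all 24 other settings. Ppfia4, a liprin-alpha of the active zone, fell from 131 to 104 CPM (-0.32 ± 0.07, adjusted p = 0.0179; called in 21 of 24). Without Ctrl 1, hCG 4 and hCG 6, Syt13 was at 0.23 (adjusted p = 0.00637) and Ppfia4 at -0.23 (adjusted p = 0.0883).

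Napb, the neuronal SNAP that couples Nsf to SNARE complexes, fell from 418 to 344 CPM (-0.27 ± 0.08, edgeR adjusted p = 0.0483; called in 8 of 24). Syt2, the fast sensor of some interneuron terminals, fell from 2.67 to 1.59 CPM, with every hCG library below every Ctrl library (-0.73 ± 0.20, adjusted p = 0.0342; 14 of 24). Neither was called without the 3 libraries (Napb -0.14, adjusted p = 0.219; Syt2 -0.70, adjusted p = 0.094). With 1 library left out, Napb was called only without Ctrl 5, hCG 1 or hCG 5, and Syt2 only without Ctrl 1, 3 or 5 or hCG 1 or 6.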

How the data were processed

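Polyadenylated RNA of dorsal dentate gyrus was measured in 12 libraries, 6 per group. The deposited dDG table holds expected counts, estimated by the authors per RefSeq transcript in 35034 rows. The step that made it is not given in the sources used here. The submitters' processing notes name STAR 2.7.6a, TopHat, Bowtie2, HTSeq 0.12.4, Trimmomatic 0.32 and the builds mm10 and GRCm38, without roles. Columns were matched to samples by the labels. The 68 oocyte and blastocyst RNA and 44 bisulfite libraries were not analysed here.

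Values were summed per symbol and rounded. The 25 symbols turned into dates (0.304 to 0.335% of counts) stayed in library totals and were not tested. Tests used edgeR 4.0.16 (robust quasi-likelihood F test, TMM factors) in R 4.3.3, two-sided, with a threshold of 0.05. Benjamini-Hochberg adjustment ran over 13853 genes or 18584 transcripts. The low-count filter, filterByExpr, asked for a CPM equal to about 10 counts in at least 6 libraries and 15 counts in total. The standard error is the log2 fold change divided by the square root of F. Errors of CPM are SD, with n = 6 throughout. Transcripts were compared with their gene by diffSpliceDGE. Alternatives were DESeq2 1.42.0, limma 3.58.1, other scalings and filters, a replicate block and each library left out. The test was checked on simulated data. Strand use in counting is not given, so antisense partners cannot be told apart.

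The members and gene lists were chosen with earlier results of these data known. Every member is reported, with values of all libraries for members past the threshold and for the smallest p of each role group, and other pathway genes are named where they passed, except 1 that is not reported here. Promoter windows came from the RefSeq table of GRCm38.p6.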

Additional observations from a re-analysis of the deposited data

Results flagged for a closer look

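Within each group of 6 libraries, the gap of the highest or lowest library to its neighbour was compared with the range of the group for the 37 genes. The 37 genes share the same libraries, so the 74 such groups are not independent. Of these 74, 5 held a library that lay far from the others, with gaps of 0.698 to 0.807 of the range. Chance alone gives about 1 in 20, so these 5 are close to that share. In 4 of them the library was Ctrl 1, the highest Ctrl library: 622.13 CPM for Syn1 (the next Ctrl library had 524.38), 1270.9 CPM for Syn2 (next 917.96), 605.83 CPM for Rab3a (next 527.23) and 390.1 CPM for Sh3gl2 (next 273.88). In the fifth it was hCG 6, the lowest hCG library for Vamp2, at 587.4 CPM (next 746.15). The same Ctrl 1 library had the lowest sum of granule neuron markers and the highest of interneuron and CA3 markers. Not every marker of these lists followed its sum. The choroid plexus transcripts were in hCG 6. The part of these markers in the values above was not tested.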

How the results depend on the processing

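Over the 22 settings planned, 28 to 31 of the 37 estimates stayed negative, with medians from -0.184 to -0.108. Members called numbered 4 higher and 2 lower as reported. DESeq2 called 5 lower (and 706 genes lower in all), library totals 2 higher, no low-count filter 1 higher, and the most abundant transcript alone 1 higher and 1 lower (418 genes higher in all). With library totals 50.3% of all calls were higher, against 59.3% with TMM. Leaving out 1 library gave 1 to 4 members higher and 0 to 4 lower, 369 to 681 genes higher and 267 to 546 lower, and 1 to 2 member transcripts higher and 0 to 3 lower. With a replicate block 2 members were higher and 1 lower, 387 genes higher and 197 lower, and 0 member transcripts lower. Samples of the same number did not deviate together (correlation -0.157 to 0.138 over 6 pairs, 1 over 0.1), and 0 of 6 pairs matched best with its own number. The labels state no pairing, and these correlations cannot exclude one that leaves no shared deviation. Without Ctrl 1, hCG 4 and hCG 6 there was 1 member higher and 0 lower (421 and 265 genes), and without hCG 4 and hCG 6 also 1 and 0 (356 and 189 genes); both were chosen after seeing the data. Member transcripts called lower were then 1, none of the 2 reported, and 0.

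Signs turned for 9 genes. Nsf became -0.0034 with DESeq2 and with median-of-ratios factors, -0.0138 with library totals, -0.0088 without the filter and -0.008 with the most abundant transcript, and ran from -0.0156 to 0.0172 with 1 library left out. With 1 library left out, Syt4 ran from -0.0969 to 0.0837 and Slc17a6 from -0.2319 to 0.1261. Without Ctrl 1, hCG 4 and hCG 6, Syn2 was 0.0283, Stx1a 0.0616, Vamp2 0.0368, Syt1 0.0035, Syt4 0.2389, Gad2 0.0771 and Amph 0.0685. Without hCG 4 and hCG 6, Syt4 was 0.1828, Gad2 0.0517 and Amph 0.0381. The cause was not tested. The effect of depth was not tested.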
